A study of Mus musculus with 6 samples.

Results

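The 9 genes described here mark neural stem cells and the cell types those cells give rise to: Nes, Sox1, Sox2, Pax6, Olig1, Olig2, Gfap, Fabp7 and Tubb3. They were chosen by name, with earlier results of these data known, because the cultures were kept in a medium made for neural stem cells. Every probe set annotated to 1 of them alone was used. That gave 18 probe sets, 16 on the Affymetrix chip MOE430A and 2 on its companion MOE430B, for 9 of the 18194 genes measured. The RNA came from myospheres, floating cell clusters, grown from hind-leg muscle of male Balb/c mice after enrichment by cell sorting for the surface antigen Sca1. All arrays share this history: 4 days of culture at passage 1 in Neurocult medium with the supplements bf6f (as spelled in the labels), LIF, B27 and EGF, then total RNA from 2000000 cells, described as a small sample of 5 µL. The mice carried no stated transgene or treatment, their age is not given in the sources used here, and no second condition is labelled. Replicates 1, 2 and 3 were each hybridised to both chips, 6 arrays in all. The labels give 1 submitted sample, and the design text counts 1 sample and 6 replicates. Nothing in them says that the replicates are separate cultures, so the spread and the p-values below may be technical only.

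Neural stem cells and radial glia carry Nestin, an intermediate filament protein, and SoxB1 transcription factors that keep them undifferentiated. Pax6 patterns the dorsal forebrain and eye, the Olig factors direct ventral progenitors to motor neurons and oligodendrocytes, and GFAP and Fabp7 mark astrocytes and radial glia. Tubb3 is a beta-tubulin of young neurons. Nestin is also known outside the nervous system, in myogenic progenitors, pericytes, endothelial cells and Schwann cells, so its transcript alone does not define a neural cell.

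Levels are MAS5 signal intensities on a linear scale. With a single condition, a level could be read only against background, which was set on each array as the 95th percentile of probe sets for genes of other tissues, such as odorant receptors, defensins and gamma crystallins. For replicates 1, 2 and 3 this limit was 819, 784 and 822 on MOE430A, and 3237, 2929 and 2542 on MOE430B. A gene counted as above background when at least 1 of its probe sets exceeded the limit of its own chip on all 3 arrays. A signal under the limit was not detectable by this rule and is not shown to be absent. Between replicates, Pearson's r of log2 signals over probe sets, which are not independent, was 0.916 to 0.922 for MOE430A and 0.749 to 0.773 for MOE430B. The 3' over 5' signal ratio of the Gapdh control averaged 13.8 on MOE430A and 15.4 on MOE430B, and that of actin 10.4 and 11.1. The lowest of these ratios on any array was 8.55, so the 5' signal of both controls was low throughout. The part of this in the member signals under the limit was not tested. In bulk RNA, fewer cells of a type and less RNA per cell cannot be told apart.

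Nes was above background and the other 8 genes were not, so 1 of 9 passed. Of all measured genes 36.2% passed the same rule. The share depends on how many probe sets a gene has, being 22.1% for a single probe set, 42.3% for 2 and 59.2% for at least 3. Sox2, Olig1, Olig2, Fabp7 and Tubb3 have 1 probe set here, Sox1 has 2, and Nes, Pax6 and Gfap have 3, 5 and 3. By probe set, 2 of 18 exceeded the limit on all 3 arrays and 16 exceeded it on none, so no member lay above on some arrays only. On MOE430A 35.1% of all probe sets and on MOE430B 10.1% exceeded the limit on all 3 arrays.

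Each probe set's mean log2 ratio to the limit was also tested against 0 with limma, adjusted over all probe sets of its chip and with the limit taken as fixed. On MOE430A, 2 of the 16 member probe sets lay above the limit, against 32.6% of all, and 13 lay below it, against 47.9% of all, at an adjusted p under 0.05, while 1 was not called. On MOE430B neither of the 2 lay above, against 8.57% of all, and both lay below, against 73.3% of all. The plot of member signals by replicate shows each of these probe sets.

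**Figure D1:**
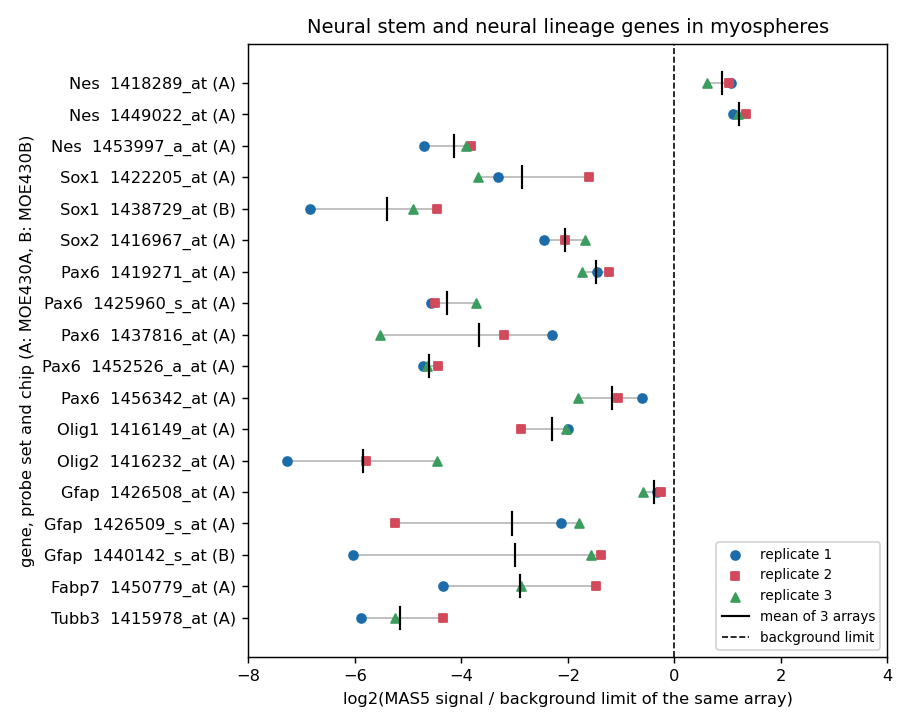
Each row is 1 probe set of a neural member gene and its chip, and the x axis is log2 of the MAS5 signal over the background limit of the same array. Points are the 3 replicates, grey lines their range, black ticks their mean and the dashed line the limit. A pair of Nes probe sets lies to the right of the limit on all 3 arrays and the other 16 probe sets lie to its left.

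Promoter sequences are shown for 3 members that differ in base composition. Nes is the gene above background, and Gfap has the member probe set that limma called in neither direction. Sox2 is a stem cell factor under the limit. The 3 promoters are RefSeq sequences of the mouse build GRCm38.p6. Each covers 250 bases before and 50 after the annotated start, 5′ to 3′ on the gene's strand. Capitals mark CG dinucleotides, the sites of DNA methylation. Nes lies on the plus strand at chr3:87970843-87971142, Sox2 on the plus strand at chr3:34649745-34650044, and Gfap on the minus strand at chr11:102897151-102897450.
Nes: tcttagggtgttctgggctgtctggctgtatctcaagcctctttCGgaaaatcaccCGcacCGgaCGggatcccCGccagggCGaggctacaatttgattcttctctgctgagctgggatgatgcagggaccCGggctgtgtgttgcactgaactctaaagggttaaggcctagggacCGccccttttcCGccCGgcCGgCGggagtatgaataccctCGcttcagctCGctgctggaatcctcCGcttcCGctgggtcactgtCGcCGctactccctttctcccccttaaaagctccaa
Sox2: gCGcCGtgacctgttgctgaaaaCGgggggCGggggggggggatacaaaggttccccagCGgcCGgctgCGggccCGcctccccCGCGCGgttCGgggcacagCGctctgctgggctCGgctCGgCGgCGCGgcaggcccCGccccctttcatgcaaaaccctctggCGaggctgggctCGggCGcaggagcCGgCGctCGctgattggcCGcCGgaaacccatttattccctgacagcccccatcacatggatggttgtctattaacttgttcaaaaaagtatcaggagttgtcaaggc
Gfap: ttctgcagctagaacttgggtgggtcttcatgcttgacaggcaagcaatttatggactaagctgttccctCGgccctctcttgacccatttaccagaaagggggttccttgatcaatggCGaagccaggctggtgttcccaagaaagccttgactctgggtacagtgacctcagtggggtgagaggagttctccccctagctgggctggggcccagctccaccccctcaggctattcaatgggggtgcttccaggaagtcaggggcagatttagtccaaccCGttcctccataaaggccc
The Nes promoter holds 18 CG dinucleotides, and 29.7% of the 32851 promoters in the table hold at least as many. The Sox2 promoter holds 27, matched or exceeded by 15.5%, and the Gfap promoter 3, matched or exceeded by 76.7%.

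In all, 8 of the 9 members had a promoter in that table (Olig1 had none), and Pax6 had 2 entries, which makes 9 promoters. Their CG counts were 37 for Sox1, 27 for Sox2, 26 for Tubb3, 25 for Olig2, 18 for Nes, 18 and 16 for Pax6, 6 for Fabp7 and 3 for Gfap. The median was 18 in member promoters and 7 in all promoters, and 7 of the 9 exceeded 7. Among the 14453 measured genes with a promoter, the median was 22 CG in the 5367 above background and 12 in the 9086 that were not. Sox1, Sox2, Tubb3 and Olig2 had more CG than the median of genes above background while their own signals stayed under the limit. The motif TATAAA, searched on both strands, occurred in 1 of the 9 member promoters, that of Olig2, and in 13.6% of all promoters.

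Nes and Gfap are the intermediate filament genes among the 9, and Nes was above background with 2 of its 3 probe sets. Probe set 1449022_at read 1752, 1991 and 1882 on replicates 1, 2 and 3, a mean of 1875 ± 120 (SD, n = 3), which is 2.32 times the limit (log2 ratio 1.21 ± 0.11 SE, limma adjusted p = 4.671e-05). Probe set 1418289_at read 1724, 1593 and 1251, a mean of 1523 ± 244 (SD, n = 3) and 1.87 times the limit (log2 ratio 0.90 ± 0.14 SE, limma adjusted p = 0.0007925). All 6 of these values lay above the limit of their array, with replicate 3 the lowest for the second probe set and replicate 1 the lowest for the first. The remaining Nes probe set, 1453997_a_at, whose ID marks probes that match alternative transcripts, disagreed with them. It read 31.7, 55.3 and 54.8, or 0.0567 times the limit (log2 ratio -4.14 ± 0.46 SE, limma adjusted p = 0.000148), and was under the limit on every array. Which Nes transcripts each probe set reads was not analysed here, and the part of the 3' over 5' ratios given above in this disagreement was not tested.

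Gfap encodes the filament of astrocytes, and of non-myelinating Schwann cells outside the brain. Its probe set 1426508_at read 653, 664 and 547, a mean of 621 ± 64.6 (SD, n = 3). At 0.766 times the limit it was the member probe set that limma did not call in either direction (log2 ratio -0.39 ± 0.20 SE, adjusted p = 0.106), and it exceeded the limit on no array. The other Gfap probe sets scattered widely: 1426509_s_at read 188, 20.6 and 236 on MOE430A, and 1440142_s_at read 49.4, 1128 and 864 on MOE430B. Their log2 ratios were -3.06 ± 0.73 (SE, limma adjusted p = 0.00651) and -2.99 ± 0.89 (SE, limma adjusted p = 0.007866). Without replicate 1, whose MOE430B chip had another lot and fluidics module than those of replicates 2 and 3, the MOE430B value was -1.47 (limma adjusted p = 0.03401).

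The SoxB1 factors Sox1 and Sox2 stayed under the limit on every array. Sox2, which neural stem cells share with pluripotent cells, read 150, 188 and 257 with its probe set 1416967_at, a mean of 198 ± 54.1 (SD, n = 3). That is 0.240 times the limit (log2 ratio -2.06 ± 0.39 SE, limma adjusted p = 0.002312). Sox1, confined more to the neural plate and its progenitors, read 82.1, 258 and 63.9 with 1422205_at on MOE430A, the highest value lying in replicate 2. Its log2 ratio was -2.87 ± 0.55 (SE, limma adjusted p = 0.002451). On MOE430B, Sox1 probe set 1438729_at read 28.4, 134 and 84.9 and had a log2 ratio of -5.40 ± 0.52 (SE, limma adjusted p = 1.849e-06), with replicate 2 again the highest.

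Pax6, a paired-box factor of radial glia and of the eye, was read by 5 probe sets on MOE430A, and none exceeded the limit on any array. Probe set 1456342_at read 535, 375 and 233, a mean of 381 ± 151 (SD, n = 3) and 0.446 times the limit. Its log2 ratio was -1.17 ± 0.33 (SE, limma adjusted p = 0.01317), and without replicate 3, the lowest array, it was -0.84 and no longer called (limma adjusted p = 0.05237). Probe set 1419271_at read 300, 335 and 248, with a log2 ratio of -1.47 ± 0.32 (SE, limma adjusted p = 0.004202). The other 3 Pax6 probe sets had means of 33.4 to 89.8 and log2 ratios of -4.60 to -3.67, each below the limit by limma.

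The Olig factors are basic helix-loop-helix proteins of oligodendrocyte precursors. Olig1 read 205, 107 and 202 with 1416149_at, a mean of 171 ± 56.0 (SD, n = 3) and 0.203 times the limit (log2 ratio -2.30 ± 0.42 SE, limma adjusted p = 0.002008). Olig2 read 5.27, 14.1 and 37.7 with 1416232_at, a mean of 19.02 ± 16.7 (SD, n = 3). Its log2 ratio was -5.84 ± 0.54 (SE, limma adjusted p = 4.665e-05). Values of this size vary several-fold between arrays and say only that no signal over background was seen.

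Fabp7, the brain fatty acid binding protein of radial glia, read 40.6, 285 and 112 with 1450779_at, so replicate 2 was the highest and replicate 1 the lowest, all under the limit. The mean was 146 ± 126 (SD, n = 3) and the log2 ratio -2.89 ± 0.62 (SE, limma adjusted p = 0.003996). Tubb3, the neuronal beta-tubulin that antibody TuJ1 detects, read 13.9, 38.5 and 21.7 with 1415978_at, a mean of 24.7 ± 12.6 (SD, n = 3). Its log2 ratio was -5.15 ± 0.44 (SE, limma adjusted p = 3.279e-05), again with replicate 2 the highest and no array near the limit.

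Most member probe sets had ratios in the range of the background probe sets. Their median log2 ratio on MOE430A was -2.88 over 16 probe sets, against -2.34 over the 151 background probe sets and -0.55 over all 22626, and 9 of the 16 were under the background median. On MOE430B the median was -4.19 over 2 member probe sets, against -2.06 over 44 background probe sets and -1.87 over all. By construction some background probe sets exceed the limit on each array. The number that did so on all 3 arrays, 4 on MOE430A and 2 on MOE430B, is not fixed by the rule. The histogram of MOE430A ratios shows the Nes pair over the limit and the other member probe sets under it.

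**Figure D2:**
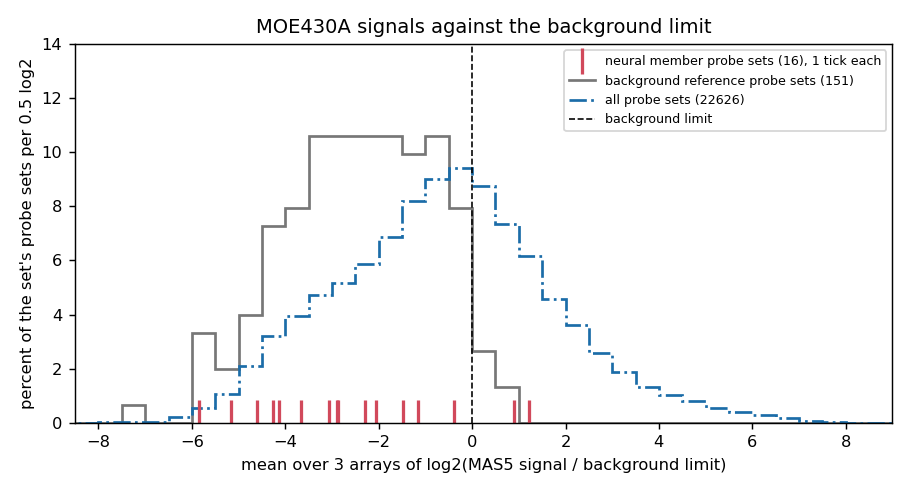
The x axis is the mean over 3 MOE430A arrays of log2 of signal over limit, and the y axis the percent of each set's probe sets per 0.5 log2. Red ticks are the 16 neural member probe sets, the grey line the 151 background probe sets, the blue dash-dotted line all 22626 probe sets and the dashed line the limit. Of the member ticks, the pair of Nes at 0.90 and 1.21 lies right of the limit, where the background line has 2 probe sets between 0.5 and 1 and none beyond.

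Scatter between replicates was wider under the limit than over it. The coefficient of variation over 3 arrays ranged from 6.38% (Nes 1449022_at) to 88.0% (Olig2) among MOE430A member probe sets. In the 14 member probe sets under the limit its median was 37.8%, against 37.2% in the 13536 MOE430A probe sets with a mean under the mean limit and 14.1% in the 9090 over it. No replicate was the low array throughout: replicates 1, 2 and 3 were lowest for 8, 2 and 6 of the 16 MOE430A member probe sets and highest for 4, 8 and 4. Both MOE430B member probe sets were lowest in replicate 1, as were 36.6% of all MOE430B probe sets. The MOE430B chip of replicate 1 differed from the others in both chip lot and fluidics module. Lot, module and replicate cannot be told apart here.

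Other genes of the same cell types were read from 4 lists: neural stem cell and radial glia, neuronal, astrocyte, and oligodendrocyte lineage. Together 15 of 63 measured genes (23.8%) were above background, against 36.2% of all genes. The lists here and below differ in probe sets per gene, on which this share depends, and it was not matched for them. The neural stem cell and radial glia list had 7 of 20 above (median log2 ratio of its probe sets -0.97): Msi2, Hes1, Emx2, Gli3, Cdh2, Bmi1 and Vim. Most of these also act in other tissues, Hes1 as a target of Notch, Gli3 as a transducer of Hedgehog signals, Cdh2 as N-cadherin, Bmi1 in a Polycomb complex and Vim as the filament of mesenchymal cells.

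Vim probe set 1450641_at read 17661, 16294 and 26105, a mean of 20020 ± 5314 (SD, n = 3) and 24.2 times the limit (limma adjusted p = 9.881e-08), and all 3 Vim probe sets were above. Gli3 averaged 8120 ± 572 on MOE430B with 1456067_at (SD, n = 3), 2.81 times the limit (limma adjusted p = 3.865e-06), while its other probe sets were not above. Msi2, an RNA-binding protein, averaged 5859 ± 1499 with 1458136_at on MOE430B (SD, n = 3), 1.98 times the limit (limma adjusted p = 0.0006584), and 2 of its 8 probe sets were above. Emx2, a homeobox factor of the cortex and the urogenital tract, averaged 4824 ± 324 on MOE430B (SD, n = 3), 1.67 times the limit. On MOE430A, Hes1 averaged 1532 ± 153, Bmi1 1752 ± 136 with 1417493_at and Cdh2 1479 ± 269 with 1449244_at (SD, n = 3 each), each between 1.81 and 2.16 times the limit. Bmi1 and Cdh2 each had another probe set under the limit on every array, at 0.682 and 0.584 times.

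The SoxB factors heading the list differed by probe set. Sox3, the third SoxB1 gene, averaged 657 ± 212 with 1435192_at (SD, n = 3), above the limit in replicate 1 only, and 215 ± 127 with 1450485_at. Sox21, a SoxB2 factor, averaged 467 ± 213 on MOE430A and 4404 ± 2881 on MOE430B (SD, n = 3 each), where replicates 2 and 3 exceeded the limit and replicate 1 did not. Neither met the rule of all 3 arrays. Prom1, from the same list, read 1514, 693 and 2008 and was above on 2 of 3 arrays, so it was not counted. Limma called its mean above the limit (log2 ratio 0.67 ± 0.26 SE, limma adjusted p = 0.04692), and it passed without replicate 2.

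The neuronal list had 2 of 20 above (10%, against 36.2% of all measured genes, median log2 ratio -2.12). Nefl, the light neurofilament chain, was above on both chips, at 2099 ± 462 on MOE430A (2.56 times the limit, limma adjusted p = 0.0001219) and 10771 ± 1781 on MOE430B (3.70 times the limit, limma adjusted p = 6.956e-07; SD, n = 3 each). Rbfox3, the NeuN antigen, passed by a small margin with 1456149_at on MOE430B, at 3660, 3052 and 2750 and 1.08 times the limit. Limma did not call it (adjusted p = 0.632), and its other probe sets lay at 0.0559 and 0.437 times the limit. Gap43 read 810, 1226 and 1611 and was above on 2 of 3 arrays, so it was not counted. Limma called its mean above the limit (log2 ratio 0.53 ± 0.20 SE, limma adjusted p = 0.03962), and it passed without replicate 1. The proneural factors Neurog1, with means of 20.5 and 157, and Neurog2, with 148 ± 89.2 (SD, n = 3), were under the limit on every array.

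The astrocyte list had 3 of 10 above (30%, against 36.2% of all measured genes, median log2 ratio -1.40). Gja1, the gap junction protein connexin 43, was above with all 6 of its probe sets, and 1415800_at averaged 14165 ± 1859 (SD, n = 3), 17.4 times the limit. Glul, glutamine synthetase, averaged 7928 ± 1403 with 1426236_a_at (SD, n = 3), 9.70 times the limit (its other probe set was at 0.999 times), and Ndrg2 4514 ± 2031 (SD, n = 3), 5.14 times. Aqp4, the water channel of astrocyte endfeet, had MOE430A means of 386 and 160.5 and an MOE430B mean of 835. The glutamate transporter Slc1a2 averaged 100.4 ± 49.9 on MOE430A (SD, n = 3), and its MOE430B probe sets had means of 310 to 473. No probe set of Aqp4 or Slc1a2 was above the limit on any array.

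The oligodendrocyte lineage list had 3 of 13 above (23.1%, against 36.2% of all measured genes, median log2 ratio -2.03). Pdgfra, a receptor of oligodendrocyte precursors and of mesenchymal cells, was above with all 3 probe sets, and 1421917_at averaged 12733 ± 791 (SD, n = 3), 15.7 times the limit. Sox10, a factor of the oligodendrocyte and Schwann cell lineages, read 1888, 1296 and 1056 with 1424985_a_at, 1.70 times the limit (limma adjusted p = 0.005465), while its other probe sets lay at 0.283 and 0.276 times. Cnp passed with 1437341_x_at alone, at 1620 ± 249 (SD, n = 3), while its other probe sets lay at 0.290 and 0.496 times the limit. IDs ending in _x_at or _s_at mark probes that can match other genes, and those in _a_at, as for Sox10, transcripts of the same gene. Without probe sets of these 3 kinds, called shared sequence below, 1 of 10 genes in the list was above. Nkx2-2, which acts with Olig2 in precursors, averaged 297 ± 32.4 (SD, n = 3).

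**Figure D3:**
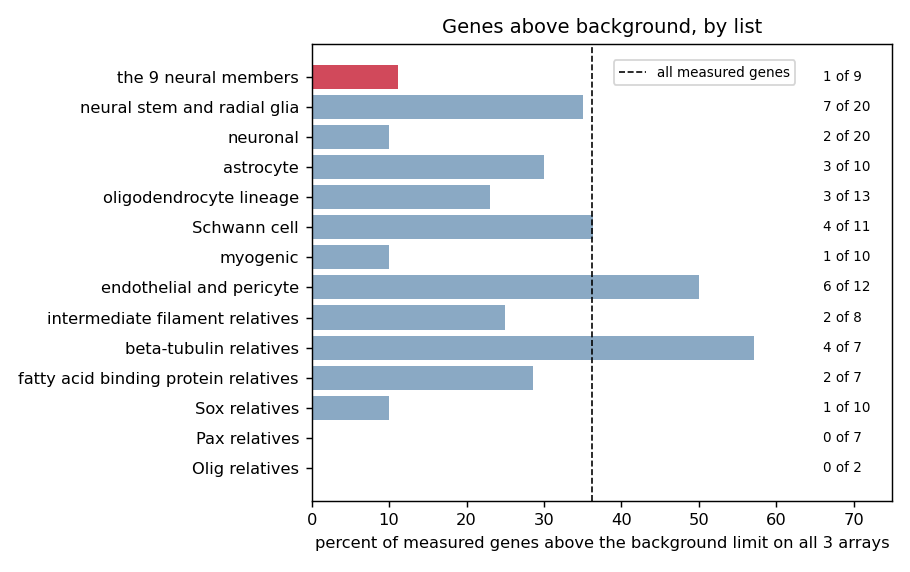
Bars give, for each gene list, the percent of measured genes above the background limit on all 3 arrays of a chip, with the numbers at the right. The red bar is the 9 neural members (1 of 9), the blue bars are the other lists and the dashed line is the 36.2% of all measured genes. The beta-tubulin and the endothelial and pericyte bars are the longest, at 4 of 7 and 6 of 12.

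Relatives of the members were read on the same arrays, each probe set against its own limit. Of all measured genes 36.2% were above. Of 8 intermediate filament relatives, Vim and Nefl were above (median log2 ratio -0.48), and without replicate 2 Prph and Nefm joined them, giving 4. Desmin, the muscle filament, averaged 315 ± 269 and 604 ± 270 with its probe sets (SD, n = 3 each), and the second was above in replicate 3 only. Nes and Vim, whose proteins assemble together, were above, and Gfap and Des were not.

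Of 7 beta-tubulin relatives of Tubb3, 4 were above (57.1%, against 36.2% of all measured genes). Their median log2 ratio was 0.32. Tubb5 averaged 13270 ± 1640 with 1416256_a_at (SD, n = 3), 16.3 times the limit, and Tubb6 8276 ± 360 with 1416431_at (SD, n = 3), 10.2 times, while the MOE430B probe set of Tubb6 was at 0.150 times. Tubb2a averaged 4934 ± 1130 with 1427347_s_at, 6.01 times the limit, and Tubb4b 2809 ± 464 with 1423642_at, 3.44 times (SD, n = 3 each). The Tubb2a value comes from a probe set that can match other genes, and its other probe set lay at 0.209 times the limit (limma adjusted p = 0.001638). Of the 6 Tubb4b probe sets 3 were above, and 1439416_x_at and 1456031_at lay at 0.435 and 0.267 times. Tubb2b and Tubb4a were each above on 2 of 3 arrays, and Tubb1, the platelet form, on 1. Tubb3 lay under the limit on all 3.

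Of 7 relatives of Fabp7, the adipocyte form Fabp4 and the epidermal form Fabp5 were above (28.6%, against 36.2% of all measured genes). The median log2 ratio of the relatives was -1.86. Fabp5 averaged 21272 ± 5047 with 1416021_a_at (SD, n = 3), 25.9 times the limit (limma adjusted p = 1.113e-07), and 1745 ± 211 with 1416022_at, 2.15 times. Fabp4 averaged 9552 ± 3085 with 1451263_a_at (SD, n = 3), 11.4 times the limit, though 2 of its 4 probe sets lay under it. Fabp3, the muscle and heart form, averaged 311 ± 25.3 on MOE430A (SD, n = 3) and was under the limit on every array. The liver and gut forms Fabp1 and Fabp2 had means of 148, 70.0 and 78.2 on MOE430A.

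Among the transcription factor relatives, 1 of 10 Sox genes, read by 36 probe sets, was above (median log2 ratio -2.15), against 36.2% of all measured genes. This was Sox4, with 1 of its 8 probe sets, 1433575_at, at 1655 ± 405 (SD, n = 3) and 2.00 times the limit. Without replicate 1, Sox9, Sox18 and Sox21 passed as well, giving 4. No Pax relative of 7 was above (median log2 ratio -2.62), and without replicate 2 Pax8 was. Pax1, of the vertebral column, averaged 104 ± 23.3 on MOE430A, and Pax3, of neural crest and muscle progenitors, 205 ± 165 and 563 ± 130 (SD, n = 3 each). Of the Olig relatives, Olig3 averaged 278 ± 93.5 and Bhlhe23 123 ± 128 (SD, n = 3 each), both under the limit. Pax2 and Bhlhe22 were not analysed here.

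**Figure D4:**
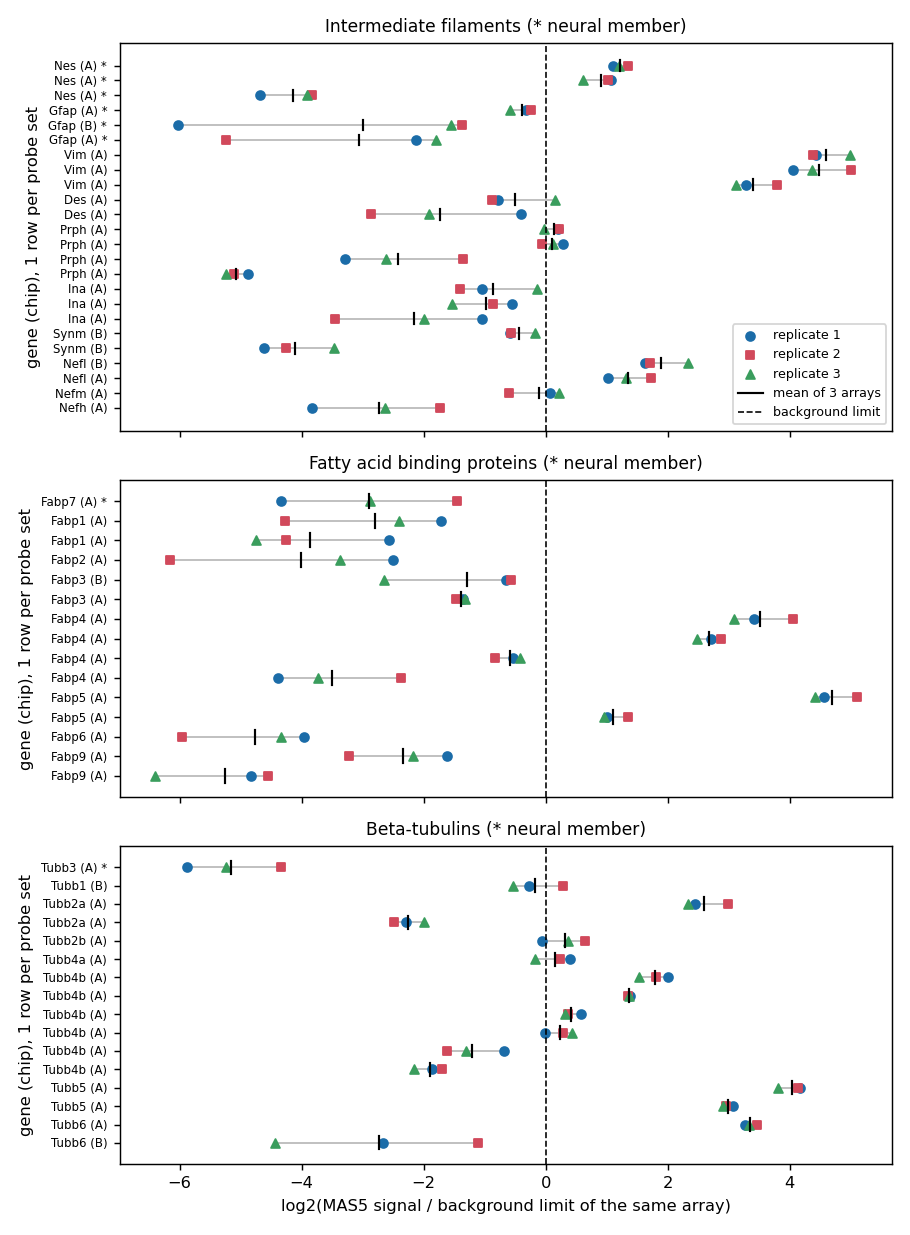
The 3 panels show the intermediate filament genes with Nes and Gfap, the fatty acid binding proteins with Fabp7, and the beta-tubulins with Tubb3, members marked by asterisks. Each row is 1 probe set with its chip (A for MOE430A, B for MOE430B), points are the 3 replicates, black ticks their mean, and the x axis is log2 of signal over the limit (dashed line). Vim, Fabp5, Fabp4, Tubb5 and Tubb6 have probe sets more than 10 times over the limit, while the Gfap, Fabp7 and Tubb3 probe sets lie under it.

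Markers of other cells that a muscle digest can hold were read beside Nes. Schwann cell genes had 4 of 11 above, namely Sox10, Pmp22, Egr2 and L1cam. That is 36.4%, near the 36.2% of all measured genes. The list's median log2 ratio was -1.84, and the summed signal of its 25 MOE430A probe sets was 22793 to 26386 over the 3 arrays. Such sums run over different numbers of probe sets in each list and give no order of the cell types. Pmp22, a myelin protein also made by fibroblasts, averaged 8981 ± 196 (11.1 times the limit), Egr2, which is also an immediate early gene, 4895 ± 2022 with 1427683_at (5.69 times), and L1cam 1649 ± 123 with 1450435_at (2.04 times; SD, n = 3 each). The other L1cam probe set lay at 0.298 times the limit (limma adjusted p = 0.004258). S100b, shared by astrocytes and Schwann cells, averaged 200 ± 83.0 and 308 ± 42.0 (SD, n = 3 each), under the limit.

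Endothelial and pericyte genes had 6 of 12 above (50%, against 36.2% of all measured genes): Kdr, Cldn5, Rgs5, Abcc9, Notch3 and Pdgfrb. The list's median log2 ratio was -0.15, and the summed signal of its 19 MOE430A probe sets was 18186 to 26024. Pdgfrb, the receptor of pericytes and mesenchymal cells, read 8789, 14497 and 4805 with 1436970_a_at, 10.5 times the limit, while its other probe set was above in replicate 1 only. Rgs5 averaged 1602 ± 216 with 1417466_at, Kdr 1841 ± 326, Cldn5 1297 ± 268 and Notch3 1218 ± 159 with 1421965_s_at (SD, n = 3 each). Of the 4 Rgs5 probe sets 2 were above and the others lay at 0.451 and 0.147 times the limit, and the other Notch3 probe set at 0.564 times, all 3 called below by limma. Abcc9 averaged 5634 ± 1620 on MOE430B with 1435752_s_at (SD, n = 3), and its other probe sets lay at 0.870 and, on MOE430A, 0.0969 times (limma adjusted p = 0.00475). Pecam1, at 164 ± 81.3, was under the limit, and of the Cdh5 probe sets, at 210.2 ± 41.5 and 908 ± 200 (SD, n = 3 each), the second exceeded it on 2 arrays. Without probe sets of shared sequence the count was 3 of 11, and at the 99th percentile limit 3 of 12.

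Myogenic genes had 1 of 10 above (10%, against 36.2% of all measured genes). This was the acetylcholine receptor subunit Chrna1, at 3593 ± 173 (SD, n = 3) and 4.44 times the limit. The list's median log2 ratio was -1.31, and the summed signal of its 12 MOE430A probe sets was 8698 to 9651. Pax7, the satellite cell factor, averaged 304 ± 11.9 on MOE430A and 375 ± 239 on MOE430B, and Myf5 76.8 ± 32.4 (SD, n = 3 each), all under the limit. Myod1 and Myog were each above on 2 of 3 MOE430A arrays, so the count was 2 of 10 without replicate 1, when Myog passed, and 2 without replicate 2, when Myod1 did. Ly6a, the gene of the sorted antigen Sca1, was not analysed here. The part of any of these cell types in the Nes signal was not tested.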

How the data were processed

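The authors deposited MAS5 signal intensity on a linear scale for 2 Affymetrix chips. The name MAS5 comes from the submitters' processing notes, and its version is not given in the sources used here. With 2% of probe sets trimmed at each end, mean signals were 1500.7 to 1500.8 on the MOE430A arrays and 1500.2 on the MOE430B arrays, so each array stands scaled to the same trimmed mean, and the chips were analysed apart. MOE430A listed 22690 probe sets (20393 with 1 gene symbol, 691 with several, 1606 with none) and MOE430B 22575 (14674, 245 and 7656). Of the probe sets with 1 gene, 20364 and 14499 matched a RefSeq table of GRCm38.p6 by Entrez number and took its symbols. Gene counts use these single-gene probe sets alone, and tests leave out control probe sets. Probe sets differ in affinity, so ratios to the limit give no order of transcript amounts between genes.

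The background limit was the 95th percentile, on each array, of 151 (MOE430A) and 44 (MOE430B) probe sets for testis kinases, placental prolactins, sperm nuclear proteins, gamma crystallins, defensins, keratin-associated proteins and the taste, vomeronasal and odorant receptors. The test was limma 3.58.1 in R 4.3.3 on log2(signal / limit) with an intensity trend. It was two-sided, with Benjamini-Hochberg adjustment and a threshold of 0.05. A run on simulated arrays used independent errors and a fixed limit, so it could check neither the error of the limit nor technical replicates. The test leaves out the error of the limit itself, and having 3 arrays per chip limits the precision. Counts and figures were made in Python 3.11.15 (numpy 2.4.6, pandas 2.3.3, matplotlib 3.10.9).

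The members and lists were chosen with earlier results of these data known. Named are all 9 members with every probe set, from each other list the genes above the limit and the first 2 genes. Tubb2b, Tubb4a, Fabp3, Myf5, Myod1, Myog, Prom1, Gap43 and the other genes named as passing without a replicate were named after their values were seen. Some listed genes are not reported here. The alternatives were other limits, chips, probe sets, variance models, scalings and each replicate left out.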

Additional observations from a re-analysis of the deposited data

How the results depend on the processing

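Nes was the 1 member gene of 9 above background under all 10 alternatives to the rule, and on MOE430A 2 member probe sets stayed above by limma under each alternative run. No paired analysis was possible because no groups are compared: the replicate numbers join the same cells on 2 chips that were scaled apart and share 100 of their probe sets. The median of each array as the limit, which lies lower, gave 57 of 123 related genes above, with 11 stem and radial glia, 7 neuronal, 5 astrocyte, 3 myogenic, 4 intermediate filament, 7 beta-tubulin, 4 Sox and 2 Pax genes. It left 1 MOE430B member probe set below the limit, reversed the sign of Gfap 1426508_at (log2 ratio 0.0851, limma adjusted p = 0.7118) and ended the calls of Pax6 1456342_at (-0.6949, limma adjusted p = 0.0916) and Gfap 1440142_s_at (-1.3442, limma adjusted p = 0.2487). The 99th percentile gave 1 neuronal and 3 endothelial and pericyte genes and a call below the limit for Gfap 1426508_at (-0.8865, limma adjusted p = 0.004604), as did receptors alone (-0.4988, limma adjusted p = 0.04744), which gave 1 neuronal gene and, having 15 reference probe sets on MOE430B, used the MOE430A limit moved to it. The MOE430B limit moved from MOE430A gave 1 neuronal gene, and MOE430A alone 4 stem and radial glia and 1 neuronal. Without probe sets of shared sequence, 1 oligodendrocyte, 3 endothelial and pericyte and 1 fatty acid binding protein gene were above and 1 MOE430B member probe set (of 1) below. Without the intensity trend, limma called 1 MOE430B member probe set below, losing Gfap 1440142_s_at (limma adjusted p = 0.05292). Leaving out each replicate gave 1 to 2 myogenic, 2 to 4 intermediate filament, 1 to 4 Sox and 0 to 1 Pax genes. Of 195 log2 ratios of member probe sets under alternatives, 188 kept direction and call, 4 lost the call, 2 gained it and 1 changed sign. On MOE430B the limit is high against the array's signals (8.57% of probe sets called above, 32.6% on MOE430A), so a weak transcript read there alone is harder to see.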
